A study of Oryza sativa with 12 samples.

Results

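Rice roots given 0.1 mM spermidine were compared with untreated rice roots, with 3 RNA-seq libraries in each group (6 of the 12 libraries of the series). All libraries came from roots of wild-type Oryza sativa; the cultivar is not given in the labels. Spermidine was given for 72 h, while no time is stated for the untreated roots, so a difference in time and the treatment cannot be told apart. The other groups, used here as a backdrop, were roots given 100 mM NaCl and roots given both agents, 3 libraries each, with the same 72 h. Values are FPKM (fragments scaled to transcript length and library size) of unigenes, which are assembled transcript clusters named by their best protein hit. Only unigenes whose best hit in the NCBI protein collection (NR) was from Oryza were compared, 68051 of 182689. Of these, the 41491 that averaged 1 FPKM or more over the 12 libraries were tested. The labels number the libraries and do not say if each is its own culture. The p-values therefore rest on the spread of these samples alone, and that spread may be technical.

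Spermidine is a polyamine, a small molecule that is positively charged in the cell and binds nucleic acids, ribosomes and membranes. Plants make it from putrescine, which comes from arginine or ornithine, and from decarboxylated S-adenosylmethionine. They break it down with polyamine oxidases and amine oxidases, which release hydrogen peroxide, or join it to phenolic acids. In roots, polyamines are known for effects on ion channels, on growth and on responses to salt.

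The 6 libraries were alike in size and make-up, with exceptions that are given where they touch a result. Rice-hit unigenes held 73.8% to 78.2% of the FPKM in untreated and 73.5% to 77.4% in spermidine libraries (exact permutation test, two-sided, p = 0.5; the smallest p that 3 against 3 allows is 0.1). Low values gave a relative depth of 1.008 to 1.015 in untreated and 0.973 to 0.991 in spermidine libraries; the total depth is unknown, so no counting intervals are given. Summed over 18 unigenes, the chlorophyll a-b binding proteins of shoots were at 7.02 to 9.74 FPKM in untreated and 4.44 to 18.9 FPKM in spermidine libraries, so leaf RNA was low by this marker. Summed over 5 unigenes, the small subunit of Rubisco was at 5.9 to 11.3 FPKM in untreated libraries but reached 87 FPKM in spermidine replicate 1. Plastocyanin was at most 0.36 FPKM untreated and reached 6.47 FPKM in the highest spermidine library. All 34 tested shoot tissue markers together summed to 85.4 to 99.9 FPKM in untreated libraries. With spermidine they summed to 214 FPKM in replicate 1 and to 97.3 and 78 FPKM in replicates 2 and 3. Their median log2 change was 0.34.

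Few rice-hit unigenes passed the test. Log2(FPKM + 1) was fitted with limma, all 12 libraries sharing their spread, and p-values were adjusted by the Benjamini-Hochberg method over all 41491 unigenes; a call means an adjusted p below 0.05. With spermidine, 16 unigenes were called (0.0386% of those tested), 11 higher (0.0265%) and 5 lower (0.0121%). At an unadjusted p below 0.05 there were 3145 (7.58%), 1379 higher (3.32%) and 1766 lower (4.26%). The spermidine libraries lay wholly above the untreated ones in 2462 unigenes (5.93%) and wholly below in 2752 (6.63%). The median log2 change was -0.01, and changes ran from -0.49 at the 5th to 0.56 at the 95th percentile. Of the 16 called unigenes, 5 reached a mean of 20 FPKM in either group, and these are described first. The calls depended on the fit. With only the spermidine and untreated libraries in it, 14 of the 16 calls were lost and 2 were kept. When unigenes without an Oryza hit entered the same fit, 59 rice-hit unigenes were called higher and 63 lower, and with a pseudocount of 0.1 FPKM limma called 0 (3075 at an unadjusted p below 0.05).

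The clearest falls were in a pair of transporters and an iron-shortage protein, and each was lower again in the NaCl libraries. A unigene described as a putative oligopeptide transporter (Cluster-52034.93014), whose closest reviewed protein is NPF5.10 of the nitrate and peptide transporter family, was at 21.5, 23.6 and 27.8 FPKM in untreated roots. With spermidine it was at 8.43, 9.15 and 9.68 FPKM. All spermidine values lay below all untreated values, and the NaCl libraries were lower again at 3.45 ± 0.671 FPKM (SD, n = 3). It fell by 1.32 ± 0.16 on the log2 scale (SE; limma adjusted p = 0.0348). Oligopeptide transporter 3 (Cluster-52034.61221), which in Arabidopsis carries iron in the phloem, was at 60.5, 71.8 and 89.9 FPKM untreated. With spermidine it was at 35, 32.1 and 34.3 FPKM. The groups did not overlap, and the spermidine libraries were closer to each other than the untreated ones were. It fell by 1.09 ± 0.15 (limma adjusted p = 0.049), and the NaCl libraries had 21.8 ± 1.63 FPKM (SD, n = 3). CGLD27 (Cluster-52034.78705), a chloroplast protein whose Arabidopsis counterpart is known from iron shortage, was at 24.1, 28.8 and 31 FPKM untreated. It was at 11.7, 7.8 and 8.74 FPKM with spermidine. Here too the groups were apart, with a fall of 1.49 ± 0.19 (limma adjusted p = 0.0373) and 4.52 ± 0.834 FPKM (SD, n = 3) with NaCl. These 3 unigenes were at 8.54 ± 1.74, 36.7 ± 5.87 and 10.5 ± 2.17 FPKM (SD, n = 3) with both agents, near their levels with spermidine alone.

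Several other members of the nitrate and peptide transporter family (NPF) had lower values without passing the adjusted test. Of 216 unigenes of nitrate, peptide and ammonium transport, 1 was called lower and 0 higher. At an unadjusted limma p below 0.05, 18 were lower and 8 higher (8.33% and 3.7%, against 4.26% and 3.32% of all). The median log2 change was -0.03. A second unigene described as NPF5.10 (Cluster-52034.53828) was at 22.1, 29.9 and 30.9 FPKM untreated and at 14.4, 13.6 and 9.36 FPKM with spermidine (limma adjusted p = 0.373). An abundant relative (Cluster-52034.77323), also described as a putative oligopeptide transporter, was at 308, 286 and 319 FPKM against 209, 212 and 173 FPKM (adjusted p = 0.214). The groups of both were apart, as were those of NPF5.15 (Cluster-52034.60187) at 158 ± 16.7 and 110 ± 4.4 FPKM (SD, n = 3; limma adjusted p = 0.227). NPF6.3 (Cluster-52034.67281), named for the nitrate transporter and sensor of Arabidopsis, was at 116 ± 4.12 and 97.7 ± 3.78 FPKM (SD, n = 3; limma adjusted p = 0.507). In the other direction, NPF8.1 (Cluster-52034.56170) was at 7.4, 9.59 and 5.81 FPKM against 19.2, 20.2 and 13.5 FPKM (adjusted p = 0.547). It stood at 154 ± 19.8 FPKM (SD, n = 3) with NaCl, where the NPF5.10 unigenes, their abundant relative and NPF5.15 were low. NPF6.3 was at 103 ± 7.12 FPKM (SD, n = 3) there, above its mean with spermidine.

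No unigene on the list for iron passed the adjusted test, and more were lower than higher at an unadjusted p below 0.05. Rice takes up iron both as the free ion and bound to mugineic acids that it releases, and moves it inside the plant with nicotianamine. Of 81 unigenes of iron acquisition and storage, a list chosen by description that holds neither oligopeptide transporter 3 nor CGLD27, limma called 0. At an unadjusted p below 0.05, 9 were lower and 3 higher (11.1% and 3.7%, against 4.26% and 3.32% of all), and the median log2 change was -0.04. The lower ones included 5 unigenes of YSL2, a carrier of the iron-nicotianamine complex. They share a best hit, so they are not separate genes, and together with 4 more of that hit their sum had a limma adjusted p of 0.422. The most abundant (Cluster-52034.72231) was at 146, 183 and 188 FPKM untreated and at 111, 87.1 and 134 FPKM with spermidine. The highest spermidine library was below the lowest untreated one. A deoxymugineic acid synthase by its closest reviewed protein (Cluster-52034.59912), which makes the rice mugineic acid, was at 474 ± 64.8 and 346 ± 17.4 FPKM (SD, n = 3; limma adjusted p = 0.524). The regulators FER-like (Cluster-52034.70360) and bHLH100 (Cluster-52034.61408), named for transcription factors that switch on iron uptake in Arabidopsis, were at 65.3 ± 8.08 and 46.9 ± 3.21 FPKM and at 23.3 ± 1.88 and 14.7 ± 2.56 FPKM (SD, n = 3; limma adjusted p = 0.391 and 0.643). The bHLH100 unigene is a minor one of its hit: the most abundant (Cluster-52034.61406) was at 352 ± 34.7 and 294 ± 40.4 FPKM (SD, n = 3), with overlapping groups. The sum over all 6 unigenes of that hit had a log2 change of -0.31 (limma adjusted p = 0.629). Nicotianamine synthase 1 (Cluster-52034.77540), which makes nicotianamine, was at 2462, 4666 and 4478 FPKM untreated and at 3404, 3573 and 3538 FPKM with spermidine, so its groups overlapped. Vacuolar iron transporter 1.2 (Cluster-52034.86949), of a family that stores iron in the vacuole, was at 7.65, 11.8 and 9.65 FPKM against 15.3, 25.3 and 21.7 FPKM (adjusted p = 0.227). Ferritin (Cluster-52034.77775), the iron-storing shell protein, was at 32.2 ± 2.06 and 38.6 ± 4.6 FPKM (SD, n = 3; limma adjusted p = 0.587). Summed over the list, however, untreated replicate 1 stood apart at 9734 FPKM against 14460 and 14216 FPKM in the other untreated libraries, and the spermidine libraries lay between them at 10712 to 11373 FPKM.

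**Figure D1:**
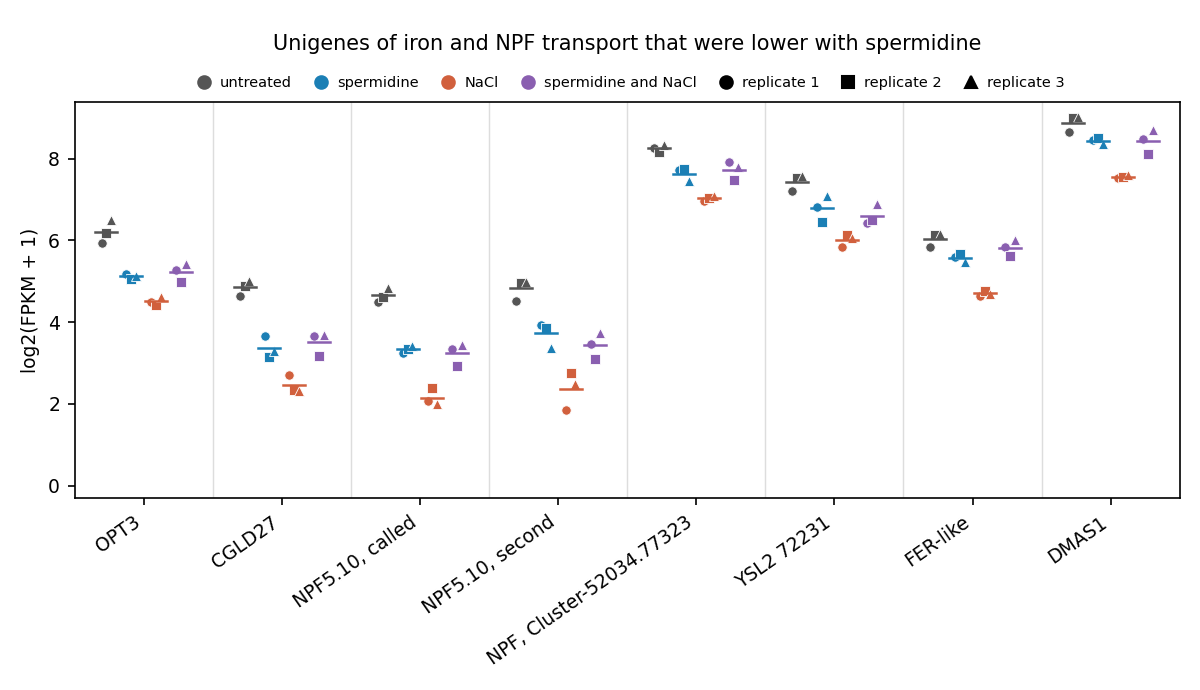
Levels of 8 unigenes of NPF and iron transport in all 12 libraries, as log2(FPKM + 1), with symbols for replicates, colours for groups and bars for group means. In each unigene the 3 spermidine libraries lie below the 3 untreated ones and above the 3 NaCl libraries; OPT3, CGLD27 and the first NPF5.10 unigene passed the adjusted test.

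The remaining called falls were of unigenes at the limit of detection. A putative AP2/EREBP transcription factor (Cluster-5742.0), of a family of plant DNA-binding proteins, was at 10.7, 5.32 and 5.35 FPKM untreated and listed at 0 in every other library of the series, those with NaCl included. It passed the filter of 1 FPKM only through the untreated libraries, where it was high. After correction for relative depth the untreated values stood at 2.01, 1 and 1.01 times the smallest, which are steps of very few reads. A hypothetical protein (Cluster-53428.2) was at 4.39, 3.08 and 6.88 FPKM untreated and at 0, 0.76 and 0 FPKM with spermidine. It was listed at 0 with NaCl and with both agents, so it too passed the filter only through the untreated libraries. Both calls are a description only.

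Among the called rises, bark storage protein A was the best measured. This unigene (Cluster-52034.78089), named for a nitrogen-storage protein of tree bark, was at 24.6, 28.9 and 23.9 FPKM untreated and at 41.6, 43.7 and 38.6 FPKM with spermidine. The groups were well apart. It rose by 0.66 ± 0.09 on the log2 scale (SE; limma adjusted p = 0.0435) and was higher still with NaCl, at 59.1 ± 2.46 FPKM, and with both agents, at 72.3 ± 3.22 FPKM (SD, n = 3).

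The other 10 called rises were of unigenes with an untreated mean below 1 FPKM, 5 of them listed at 0 in all untreated libraries. They included 60S ribosomal protein L13-2 (Cluster-52034.26374) at 14, 17.1 and 15.7 FPKM with spermidine, and 60S ribosomal protein L10a (Cluster-52034.17700) at 39.7, 18.9 and 36.4 FPKM. In untreated roots these stood at 0, 0 and 0.4 FPKM and at 0, 0 and 2.13 FPKM. A cytosolic glyceraldehyde-3-phosphate dehydrogenase (Cluster-52034.65522), an enzyme of glycolysis, was at 0.13, 0 and 0.47 FPKM untreated and at 6.63, 6.51 and 17.5 FPKM with spermidine. A small ubiquitin-related modifier (Cluster-52034.111970), a peptide that is attached to other proteins, was listed at 0 untreated and was at 3.99, 6.18 and 7.66 FPKM with spermidine. A vignain-like protease (Cluster-52034.22154), of the papain family, was listed at 0 and was at 5.06, 4.68 and 22.4 FPKM. The remaining ones were Os01g0694400 (Cluster-52034.17473), a hypothetical protein (Cluster-52034.17805), a hypersensitive-induced response protein 4 (Cluster-52034.56650), a tyrosine-sulfated glycopeptide receptor (Cluster-52034.66586) and calcium-transporting ATPase 6, with spermidine means of 3.48 to 5.94 FPKM. Os01g0694400, the small ubiquitin-related modifier and the vignain-like protease were listed at 0 in every library outside the group given spermidine alone. They passed the filter of 1 FPKM only through the libraries where they were high. The same holds for L13-2, L10a, glyceraldehyde-3-phosphate dehydrogenase, the hypothetical protein, the hypersensitive-induced response protein and the receptor. Over the libraries outside the group given spermidine alone, each of these averaged below 1 FPKM. The spread shared by all 12 libraries also includes these zeros and low values, so all these calls are a description only. The fitted changes of the called rises near 0 depend on the pseudocount and are not given as folds.

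Unigenes detected in every spermidine library and listed at 0 in every untreated one were far more frequent outside the rice hits. Of 68051 rice-hit unigenes, 197 (0.289%) were above 0 in every spermidine library and at 0 in every untreated one, and 154 (0.226%) the reverse. Among the 35774 unigenes with a best hit outside Oryza these were 2510 (7.02%) and 473 (1.32%), and among the 78864 with no hit 3095 (3.92%) and 1130 (1.43%). Of the 11 called rises, 7 were also listed at 0 in every NaCl library. The best TrEMBL hit of the L10a unigene, from a second protein collection, was outside Oryza. The part of RNA from other organisms in these rises was not tested.

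Unigenes of the same protein also went in opposite ways. For calcium-transporting ATPase 6, a pump that moves calcium out of the cell, the called unigene (Cluster-52034.51430) was at 0.88, 0 and 0.78 FPKM untreated and at 6.62, 5.89 and 5.3 FPKM with spermidine. A unigene of the same best hit (Cluster-52034.70611) was at 4.34, 4.01 and 4.05 FPKM untreated and at 0.01, 0 and 0.67 FPKM with spermidine (limma adjusted p = 0.205). Summed over the 16 unigenes of that hit, the log2 change was 0.11 (adjusted p = 0.8). How reads were divided between near-identical unigenes was not tested. Summed in the same way, an alternative added after the data were seen, the L13-2 and glyceraldehyde-3-phosphate dehydrogenase hits gave log2 changes of -0.056 and -0.036. The called receptor unigene (tyrosine-sulfated glycopeptide receptor, Cluster-52034.66586) had a change of 2.11 alone and of 0.10 summed over the 8 unigenes of its hit (adjusted p = 0.927). Bark storage protein A had 0.65 summed over its hit (adjusted p = 0.0539), and the hypersensitive-induced response protein 1.99 (adjusted p = 0.167).

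Among peroxidases and enzymes of phenolic synthesis, more unigenes were higher than lower at an unadjusted p below 0.05, and none was called. Class III peroxidases are secreted enzymes that use hydrogen peroxide to cross-link the cell wall, and the phenylpropanoid pathway supplies the phenolic units of lignin. Of 322 class III peroxidase unigenes limma called 0, with a median log2 change of 0.04. At an unadjusted limma p below 0.05, 35 were higher and 18 lower (10.9% and 5.59%, against 3.32% and 4.26% of all). Of 225 phenylpropanoid unigenes it called 0, with 23 higher and 11 lower (10.2% and 4.89%) and a median of 0.05. A unigene of Peroxidase 15 (Cluster-52034.72871) was at 104, 107 and 93.8 FPKM untreated and at 172, 248 and 214 FPKM with spermidine, with no overlap (limma adjusted p = 0.136). Peroxidase 1 (Cluster-52034.79986) was at 11.9, 12.4 and 23.6 FPKM against 39.1, 44.9 and 39.5 FPKM (adjusted p = 0.186). Peroxidase 53 (Cluster-52034.80149) shares its best hit with both Peroxidase 15 unigenes; it was at 128 ± 8.19 and 243 ± 66.8 FPKM (SD, n = 3; limma adjusted p = 0.266), and the sum of that hit had an adjusted p of 0.108. In the other direction, a peroxidase P7 unigene (Cluster-52034.53242) was at 27.2 ± 2.22 and 19.5 ± 2.23 FPKM (SD, n = 3; limma adjusted p = 0.391).

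In the phenolic pathway, a phenylalanine ammonia-lyase (Cluster-52034.84877), the entry enzyme, was at 16, 16.5 and 17.4 FPKM untreated and at 23.2, 28 and 26.9 FPKM with spermidine (limma adjusted p = 0.266). It is a minor unigene of its hit, whose 3 unigenes summed to 148, 161 and 143 FPKM against 163, 211 and 140 FPKM. These sums overlapped, with a log2 change of 0.16 (adjusted p = 0.792). The most abundant phenylalanine ammonia-lyase unigene (Cluster-52034.65483), of another hit, was at 3649, 3562 and 3056 FPKM untreated. With spermidine it was at 3726, 3909 and 3912 FPKM, with no overlap (limma adjusted p = 0.663). Cinnamoyl-CoA reductase 1 (Cluster-52034.71058), the first enzyme of the lignin branch, was at 101 ± 5.06 and 130 ± 9.83 FPKM, and Laccase-3 (Cluster-52034.91437), of a family that polymerises lignin, at 8.12 ± 1.11 and 12.9 ± 1.14 FPKM (SD, n = 3; limma adjusted p = 0.396 and 0.369). The 2 unigenes of the reductase hit summed to 317, 290 and 269 FPKM against 306, 398 and 327 FPKM. These sums overlapped (log2 change 0.23, limma adjusted p = 0.634). O-methyltransferase 2 (Cluster-52034.69295) was at 93.6, 106 and 85 FPKM against 215, 157 and 179 FPKM (adjusted p = 0.0913). Its 3 spermidine libraries were all above the untreated ones. Of 75 unigenes for the suberin layer and the Casparian strip, the seals of the root endodermis, limma called 0. At an unadjusted limma p below 0.05, 5 were higher and 0 lower (6.67% and 0%, against 3.32% and 4.26% of all). Casparian strip membrane protein 1 (Cluster-52034.73094) was at 112, 109 and 118 FPKM against 121, 170 and 147 FPKM, and a fatty acyl-CoA reductase (Cluster-52034.56383), which makes fatty alcohols of suberin, at 78.3 ± 6.98 and 106 ± 3.41 FPKM (SD, n = 3; limma adjusted p = 0.576 and 0.641). In bulk roots, more cells of a type and more RNA per cell cannot be told apart.

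**Figure D2:**
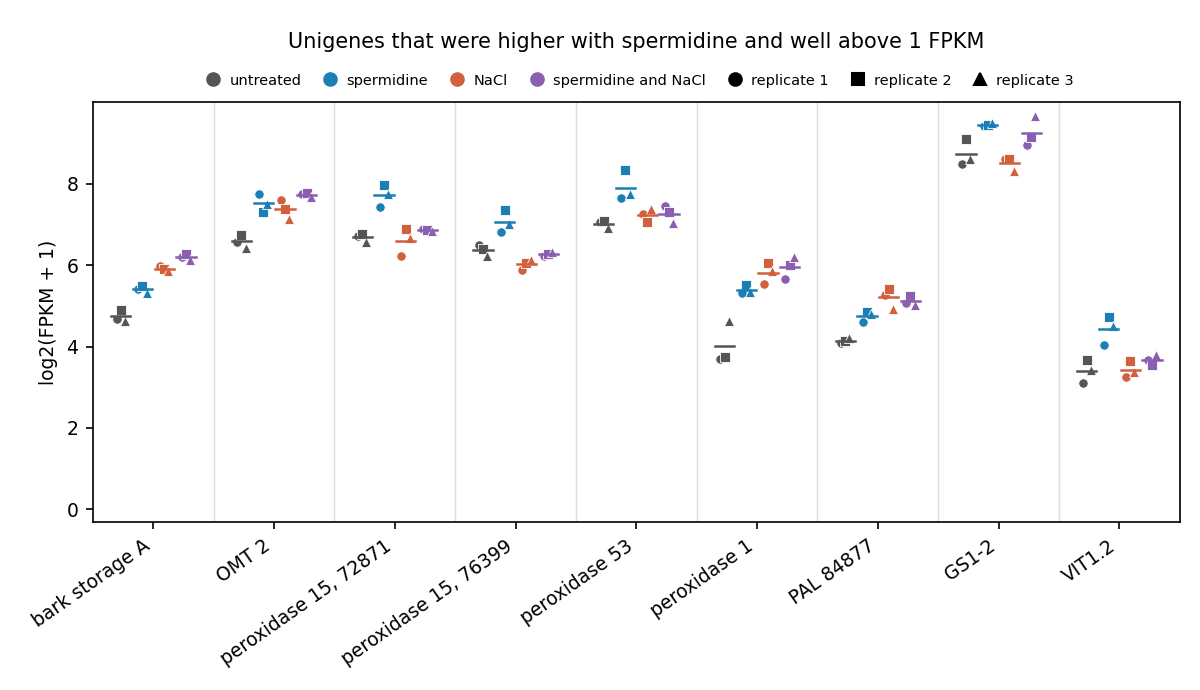
Levels of 9 unigenes that were higher with spermidine, in all 12 libraries, as log2(FPKM + 1), with symbols for replicates, colours for groups and bars for group means. In every one the 3 spermidine libraries lie above the 3 untreated ones; bark storage protein A alone passed the adjusted test.

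On the lists for nitrogen assimilation and for phosphate transport and SPX proteins, more members were higher than lower at an unadjusted p below 0.05. None was called. Of 38 unigenes of nitrogen assimilation limma called 0, with a median log2 change of 0.13. At an unadjusted limma p below 0.05, 5 were higher and 1 lower (13.2% and 2.63%, against 3.32% and 4.26% of all). Cytosolic glutamine synthetase 1-2 (Cluster-52034.75379), which fixes ammonium in roots, was at 354, 547 and 389 FPKM untreated and at 676, 698 and 717 FPKM with spermidine (adjusted p = 0.457). The spermidine libraries were close together and above the scattered untreated ones. Nitrate reductase (Cluster-52034.59297) was at 68 ± 13.5 and 89 ± 7.75 FPKM (SD, n = 3; limma adjusted p = 0.627). Of 79 unigenes on the list of phosphate transport and SPX proteins, which sense phosphate status, limma called 0, with 10 higher and 1 lower (12.7% and 1.27%) and a median of -0.003. The list was chosen by description, and not all its members are transporters or SPX proteins. Its most abundant member, counted among the 10, is described as a nucleotide pyrophosphatase/phosphodiesterase (Cluster-52034.73222). Phosphate transporter 1-2 (Cluster-52034.42994) was at 34.3, 60.6 and 35.2 FPKM against 75.1, 64.3 and 76.6 FPKM (adjusted p = 0.577), and it was at 13 ± 2.05 FPKM (SD, n = 3) with NaCl. Phosphate transporter 1-8 (Cluster-52034.78989) was at 52.4 ± 4.86 and 65.8 ± 6.97 FPKM and, the other way, at 204 ± 3.64 FPKM with NaCl (SD, n = 3). The 5 unigenes of its hit summed to 89.6, 180 and 89.7 FPKM untreated and to 140, 150 and 115 FPKM with spermidine. These sums overlapped (limma adjusted p = 0.805).

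In ribosomal proteins, defence proteins and gibberellin enzymes, more unigenes were lower than higher at an unadjusted p below 0.05. Of 326 unigenes of cytosolic ribosomal proteins, 50 were lower and 19 higher at an unadjusted limma p below 0.05 (15.3% and 5.83%, against 4.26% and 3.32% of all). The median log2 change was -0.16, although both called members, L13-2 and L10a, were rises. Summed over the list, FPKM was 50906, 47223 and 55400 untreated and 42742, 50033 and 43582 with spermidine, so the groups overlapped. L5-1 (Cluster-52034.71767) was at 17.9, 16.7 and 18.3 FPKM against 11.7, 7.44 and 9.06 FPKM (adjusted p = 0.29). The 4 unigenes of its hit summed to 498, 471 and 537 FPKM against 412, 487 and 437 FPKM, which overlapped (log2 change -0.17, adjusted p = 0.629). Of 269 unigenes of pathogenesis-related proteins and chitinases limma called 0, with 26 lower and 11 higher (9.67% and 4.09%) and a median of -0.12. A beta-1,3-glucanase (Cluster-52034.50872), which digests fungal walls, was at 132 ± 10.1 and 102 ± 9.7 FPKM, and Chitinase 2 (Cluster-52034.85585), the other way, at 147 ± 31.2 and 214 ± 30.4 FPKM (SD, n = 3; limma adjusted p = 0.4 and 0.468). Of 45 unigenes of gibberellin metabolism and response, 6 were lower and 0 higher (13.3% and 0%, limma called 0), with a median of -0.09. The spermidine libraries lay wholly below the untreated ones in 8 of the 45 and wholly above in 5. These were 17.8% and 11.1%, against 6.63% and 5.93% of all. Gibberellin 3-beta-hydroxylase (Cluster-52034.79546), which completes the active hormone, was at 68.2, 58.3 and 74.2 FPKM against 48.2, 51.6 and 47.3 FPKM (adjusted p = 0.443). Gibberellin 20 oxidase 1 (Cluster-52034.72205), the step before, was at 56.6, 51.8 and 61.7 FPKM against 43.1, 46.8 and 44.2 FPKM (adjusted p = 0.485). Neither pair of groups overlapped.

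**Figure D3:**
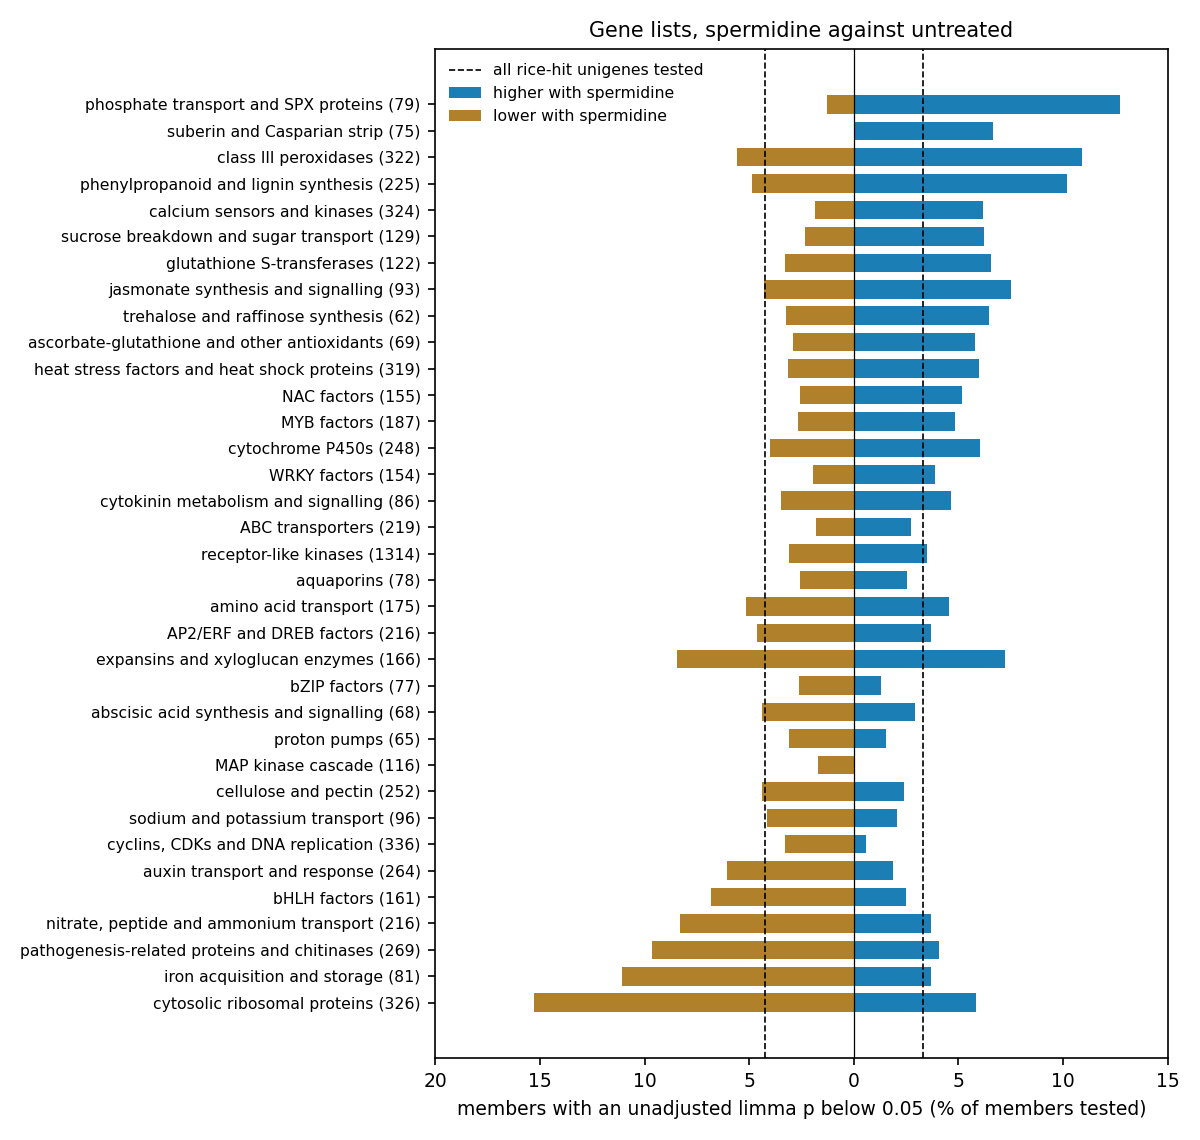
Share of the tested members of each gene list with an unadjusted limma p below 0.05, to the right for higher and to the left for lower with spermidine, for the lists with at least 60 members (number tested in brackets). Dashed lines mark the shares over all rice-hit unigenes, 3.32% higher and 4.26% lower. The list of ribosomal proteins reaches 15.3% on the lower side, and that of phosphate transport and SPX proteins 12.7% on the higher side.

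Outside the lists, single regulators showed wide gaps without a call. KAI2 (Cluster-52034.57021), an esterase-like receptor of karrikins, was at 244, 184 and 206 FPKM untreated and at 76.6, 48.1 and 140 FPKM with spermidine (limma adjusted p = 0.294). SHI RELATED SEQUENCE 1 (Cluster-52034.89972), of a family that regulates auxin synthesis in Arabidopsis, was at 16.2, 17.8 and 21.6 FPKM against 6.78, 3.86 and 3.73 FPKM (adjusted p = 0.183). In both, every spermidine library was below every untreated library. SRG1 (Cluster-52034.51769), a dioxygenase named from senescence, was at 14.8, 15.2 and 15.9 FPKM against 8.48, 7.21 and 9.72 FPKM (adjusted p = 0.0784). Summed with the other unigene of its best hit, its adjusted p was 0.0327.

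The genes that make and break down polyamines did not pass the test. Of 20 tested unigenes of polyamine synthesis limma called 0, with a median log2 change of -0.14. At an unadjusted limma p below 0.05, 0 were higher and 2 lower (0% and 10%, against 3.32% and 4.26% of all). In 6 of the 20 (30%, against 6.63% of all) the spermidine libraries lay wholly below the untreated ones, and in 1 (5%, against 5.93%) wholly above. Of 49 for breakdown, conjugation and uptake it called 0, with 3 on each side (6.12%) and a median of 0.02. The lowest adjusted p of any of them was 0.532. Among the 44 that averaged 10 FPKM or more in either group, 43 had a log2 change within 0.5 of 0, with a median SE of 0.15. The 5th and 95th percentiles for all 41491 tested were -0.49 and 0.56, so changes this small were common and not particular to polyamine genes. Of the 44, the spermidine libraries lay wholly below the untreated ones in 8 and wholly above in 3, where the shares of all tested were 6.63% and 5.93%. Oligopeptide transporter 3, with a like SE, was called at a change of -1.09, so smaller changes in these unigenes may not have been detectable.

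For the entry into the pathway, arginine decarboxylase 1 (Cluster-52034.73530), which starts putrescine synthesis, was at 106, 91.7 and 94.9 FPKM untreated and at 79.4, 97.4 and 82.5 FPKM with spermidine. Spermidine synthase 1 (Cluster-52034.68891) was at 79.1, 87.4 and 91 FPKM against 73.1, 82.6 and 81.2 FPKM. Both pairs of groups overlapped (adjusted p = 0.751 and 0.752). S-adenosylmethionine decarboxylase, which supplies the aminopropyl group, had unigenes that went either way. The most abundant (Cluster-52034.77631) was at 173 ± 6.06 and 161 ± 14.8 FPKM (SD, n = 3; limma adjusted p = 0.762). Another (Cluster-52034.57088) was at 135, 121 and 121 FPKM against 93, 110 and 111 FPKM (adjusted p = 0.603), with no overlap. A further one (Cluster-52034.76799) was at 98.9, 99.4 and 91.6 FPKM against 130, 138 and 91.7 FPKM (adjusted p = 0.818). Only spermidine replicates 1 and 2 were above the untreated range in it, and its level with NaCl was 363 ± 30.9 FPKM (SD, n = 3).

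On the side of breakdown, polyamine oxidase 4 (Cluster-52034.74870) was the most abundant at 387, 330 and 372 FPKM untreated and 297, 326 and 363 FPKM with spermidine. The groups overlapped (limma adjusted p = 0.747). Polyamine oxidase 2 (Cluster-52034.78573) was at 32.7, 35.7 and 32.3 FPKM against 37.2, 40 and 36.8 FPKM (adjusted p = 0.625). Summed over the 2 unigenes of its hit, the groups overlapped, with a log2 change of 0.08 (limma adjusted p = 0.804). Unigenes of primary amine oxidase 1 went in opposite ways, at 17, 16.6 and 16 FPKM against 14.2, 11.3 and 12.1 FPKM for the first (Cluster-52034.67579) and at 3.89, 7.01 and 7.48 FPKM against 8.25, 10.9 and 13.3 FPKM for the second (Cluster-52034.70344). Putrescine hydroxycinnamoyltransferase 2 (Cluster-52034.73625), which joins putrescine to phenolic acids, was at 21.5, 23.6 and 28.4 FPKM against 21.1, 20 and 16.6 FPKM (adjusted p = 0.641). None of these differences passed the test.

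Spermidine replicate 3 stood apart from replicates 1 and 2 in part of the genes, while the overall spread was similar in both groups. The median SD of log2(FPKM + 1) over all rice-hit unigenes was 0.196 with spermidine and 0.184 in untreated roots, a ratio of 1.07. That ratio turned with single libraries, at 0.81 without spermidine replicate 2 or without replicate 3 and at 1.38 without untreated replicate 3. Across unigenes, the correlation of spermidine replicates 1 and 2 was 0.953, while replicate 3 had 0.945 and 0.94 with them; untreated pairs had 0.95 to 0.953. Of 10868 unigenes that reached 20 FPKM in some spermidine library, 236 (2.17%) varied at least 4-fold among the 3, on the log2(FPKM + 1) scale. In untreated roots these were 138 of 10837 (1.27%). Among the 236, replicate 3 was the lowest in 122 and replicate 2 the highest in 120.

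The gap between replicate 3 and the others lay in genes that salt raises. Of the tested unigenes, 1677 (4.04%) were called higher with NaCl than untreated with a log2 change of at least 2. Their summed FPKM was 27970 and 30345 in spermidine replicates 1 and 2 but 14266 in replicate 3, against 14764, 16136 and 12360 in the untreated libraries. With NaCl it was 155069 to 194020. Replicates 1 and 2 were above every untreated library, replicate 3 was within their range, and all were far below the NaCl libraries. Measured from the mean of the spermidine group, the median deviation of these unigenes was 0.18, 0.25 and -0.38 in replicates 1 to 3, and replicate 3 alone was lowest in 1238 (73.8%). Over all tested unigenes it was lowest in 33.5%. The untreated libraries deviated by 0.00, 0.07 and -0.06. The untreated libraries also served to choose these unigenes, so their levels are set beside the others as a description only, while the deviations within the spermidine group use no untreated value. The 7061 unigenes called lower with NaCl deviated by -0.02, -0.01 and 0.03. That set had no minimum size of change, so it is not matched to the 1677.

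**Figure D4:**
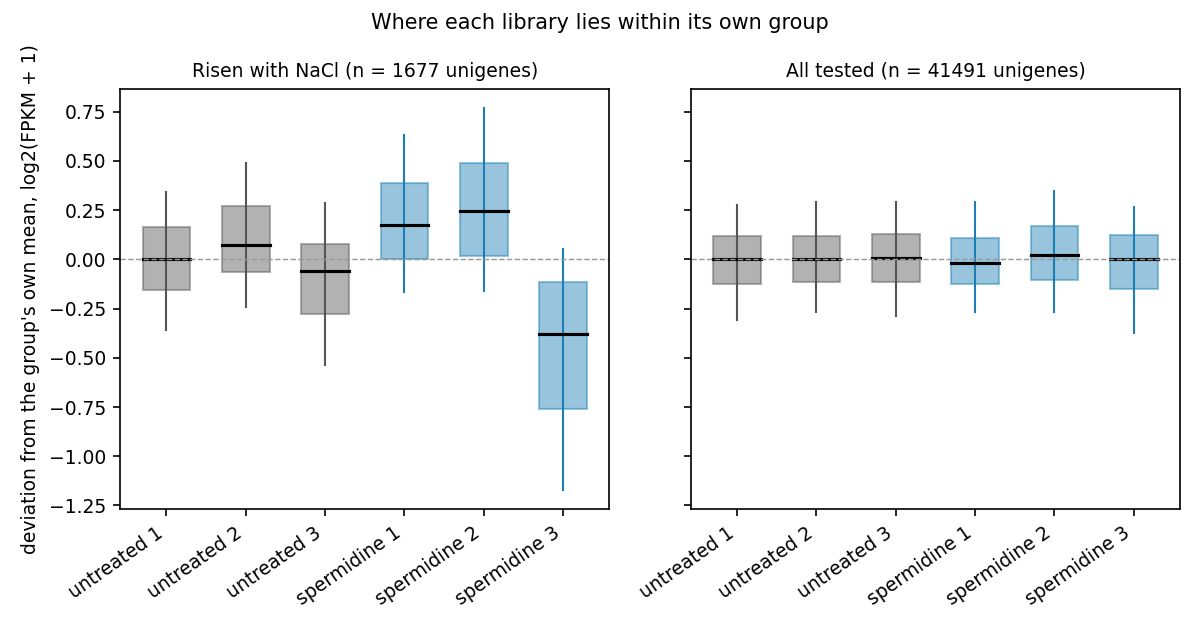
Deviation of each library from the mean of its own group, on the log2(FPKM + 1) scale, for the 1677 unigenes risen with NaCl (left) and all 41491 tested (right). Black lines are medians, boxes span the quartiles and lines the 10th to 90th percentiles over unigenes; in the left panel spermidine replicate 3 has a median of -0.38 and replicates 1 and 2 have 0.18 and 0.25.

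Stress regulators showed this split most plainly, and the following were chosen after their values were seen. ERF109 (Cluster-52034.47205), an ethylene-response factor, was at 27.8, 24.9 and 0.64 FPKM in spermidine replicates 1 to 3 and at 0.22 to 1.47 FPKM in untreated roots. TIFY 11e (Cluster-52034.94282), a jasmonate-signalling repressor, was at 39.4, 34 and 0 FPKM, against 2.97 to 2.99 FPKM untreated. WRKY71 (Cluster-52034.42565), a WRKY transcription factor, was at 34.5, 28 and 2.25 FPKM, against 3.15 to 4.74 FPKM. In all 3, replicates 1 and 2 exceeded the untreated range many times over and replicate 3 did not.

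The drought- and cold-response factor DREB1B (Cluster-52034.66176) was at 373, 403 and 44.3 FPKM with spermidine and at 21.6 to 65.2 FPKM untreated. DREB1H (Cluster-52034.45001) was at 106, 82.2 and 7.66 FPKM, against 1.52 to 17 FPKM. BHLH148 (Cluster-52034.58002), a factor tied to jasmonate responses in rice, was at 100, 110 and 20.9 FPKM, against 25.6 to 32.9 FPKM. In these, replicate 3 lay within or below the untreated range. MAPKKK17 (Cluster-52034.44156), a stress-signalling kinase, differed in that replicate 3, at 15.9 FPKM, was just above the untreated range of 7.91 to 15 FPKM, with 59 and 129 FPKM in replicates 1 and 2. ZAT12 (Cluster-52034.95386), a zinc-finger regulator of oxidative stress responses, was at 46.4, 39 and 10.3 FPKM, against 1.29 to 11.3 FPKM.

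None of these had a small p for spermidine against untreated; the limma adjusted p was 0.691 for ERF109 and 0.804 for DREB1B. The same genes also divided the libraries given both agents. In these, replicate 1 had 114 FPKM of ERF109 and 807 FPKM of DREB1B, while replicates 2 and 3 had 0.92 and 2.36 FPKM and 0 and 61 FPKM. MYB20 (Cluster-52034.102402), a MYB factor also high with NaCl, did not split the spermidine libraries. It was at 11.7, 11.6 and 11 FPKM with spermidine against 2.94 to 3.72 FPKM untreated. With both agents, however, replicate 1 was again the highest, at 13.4 FPKM against 4.66 and 5.02 FPKM in replicates 2 and 3.

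**Figure D5:**
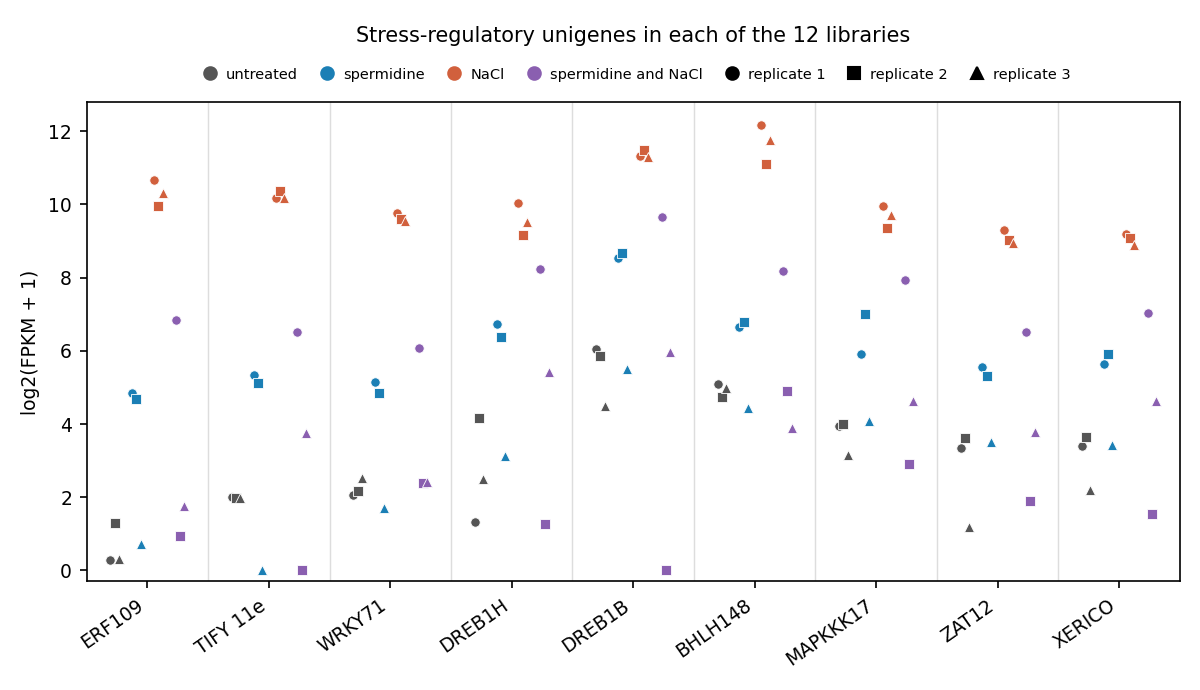
Levels of 9 stress-regulatory unigenes, chosen after their values were seen, in all 12 libraries as log2(FPKM + 1), with symbols for replicates and colours for groups. Spermidine replicates 1 and 2 lie between the untreated and the NaCl libraries, and spermidine replicate 3 lies near the untreated ones.

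At the level of whole families the split was smaller. The summed FPKM of 154 WRKY factors was 3492, 3448 and 2694 with spermidine and 2553 to 2814 untreated. That of 216 AP2/ERF and DREB factors was 12305, 13070 and 9068, against 9260 to 10376 untreated. Of the unigenes described above, the S-adenosylmethionine decarboxylase one (Cluster-52034.76799) had the split, with replicate 3 in the untreated range. In OPT3, CGLD27 and NPF5.10 replicate 3 was as low as the others, and in Peroxidase 15 and glutamine synthetase 1-2 it was as high. Spermidine replicate 1, which held the Rubisco signal, was not the library that stood apart here.

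Of the 10 unigenes with the widest range among the spermidine libraries, replicate 3 was listed at 0 in 6 and replicate 2 was the highest in 7. Of the 10 widest in untreated roots, untreated replicate 3 was listed at 0 in 6 and untreated replicate 2 was the highest in 5. EL5, a ubiquitin ligase (Cluster-52034.96764), was at 26, 106 and 0 FPKM with spermidine but also at 88.8, 0 and 0 FPKM untreated. MKK5 (Cluster-52034.46722), a kinase, was at 68, 95.6 and 0 FPKM with spermidine and at 15.5, 15.4 and 30.9 FPKM untreated. EL5 jumped between 0 and high values in both groups, while MKK5 had a 0 in spermidine replicate 3 only among these 6 libraries. How many reads stand behind such values is unknown.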

How the data were processed

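The authors deposited a table of FPKM per unigene for the 12 libraries, with the best protein hits; all its measurement columns belonged to the series (0 belonged to no sample). The tools listed per the submitters' processing notes are RSEM, Bowtie2 and CASAVA 1.8. What each did, how unigenes were assembled and filtered, and whether strand was used is not given in the sources used here, so antisense and near-identical unigenes are uncertain. FPKM keeps no read counts, and a fold on the log2(FPKM + 1) scale understates the change of low unigenes. A value of 0 can be a failed estimate.

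Rice hits with a mean of at least 1 FPKM were fitted with limma 3.58.1 (R 4.3.3) as 4 group means, with variances that follow the mean, two-sided tests and Benjamini-Hochberg adjustment. The step was tested on simulated data. The interaction takes spermidine's change under NaCl and subtracts its change without NaCl. Shares were compared by exact permutation (scipy 1.17.1). The replicate numbers did not pair the libraries. The 52 gene lists were defined by words in the descriptions and are reported by counts and medians, with no test. Unigenes that share a best hit count as separate members of a list.

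The members, lists and tests were chosen with earlier results of these data known. The naming rule took all called unigenes (up to 40); the 12 largest rises and 12 largest falls with a mean of at least 5 FPKM, an unadjusted p below 0.01 and no overlap; polyamine members averaging 10 FPKM or more; for each other list the member of smallest p and the most abundant; and the 10 widest ranges in each group. The text gives a part of these. Further NPF, iron, peroxidase, phenolic, suberin, nitrogen, phosphate, defence and gibberellin members, SRG1, L5-1, sums over hits and the stress regulators were chosen after their values were seen.

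Alternatives were all best hits in the fit, only the 2 groups compared, a pseudocount of 0.1, other filters, other scalings, array weights, a replicate block, each library left out and, added after the data were seen, hits in Oryza in both protein collections and sums per TrEMBL hit.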

Additional observations from a re-analysis of the deposited data

Results flagged for a closer look

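For 34 of 62 unigenes followed above, the change with spermidine under NaCl differed from the change with spermidine alone (limma interaction, adjusted p below 0.05, against 14.4% of all tested unigenes). Many were named for a difference between spermidine and untreated roots, which enters the interaction with its sign turned, so these values describe the unigenes and support nothing further. Values are the change under NaCl minus the change without, on the log2 scale. The 62 do not include the stress regulators, MYB20 or the abundant bHLH100 unigene (Cluster-52034.61406). Of the regulators named above, all but DREB1B (limma interaction adjusted p = 0.0643) passed as well. The largest difference among those that passed was -9.91 for ERF109 (adjusted p = 0.00914). The abundant bHLH100 unigene had 0.91 (adjusted p = 0.0158).

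Transporters and regulators that were lower with spermidine alone mostly had higher levels with both agents than with NaCl. The difference was 2.41 ± 0.23 (SE) for the called NPF5.10 unigene, with a change of -1.32 without NaCl and 1.09 under it, and 2.17 for the second. It was 1.81 for oligopeptide transporter 3, 2.54 for CGLD27, 1.33 for the abundant oligopeptide transporter relative of NPF5.10, 1.34 for NPF5.15 and 0.44 for NPF6.3, whose change under NaCl was 0.20 (limma adjusted p = 0.0707). Among iron genes it was 1.58 for FER-like, 2.11 for bHLH100, 1.32 for the deoxymugineic acid synthase and 1.24 for YSL2. Gibberellin 3-beta-hydroxylase had 1.47 and gibberellin 20 oxidase 1 had 0.63. SRG1 had 0.86 and L5-1 had 0.94, with changes of 0.07 for both under NaCl. NPF8.1 had -4.29 and phosphate transporter 1-8 had -1.53, the other way.

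Among polyamine genes, arginine decarboxylase 1 had -0.90 ± 0.17 (SE), with a change of -0.17 without NaCl and -1.07 under it. The S-adenosylmethionine decarboxylase unigene that split the spermidine libraries had -1.88, polyamine oxidase 2 had -0.42 and putrescine hydroxycinnamoyltransferase 2 had 0.77. The minor phenylalanine ammonia-lyase unigene (Cluster-52034.84877) had -0.71, Peroxidase 1 had -1.24 and Peroxidase 53 had -0.85.

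Unigenes at or near 0 in most libraries gave the rest of the 34. Os01g0694400 had -2.54, the SUMO-like modifier -2.76, the hypothetical proteins -2.81 and 2.21, glyceraldehyde-3-phosphate dehydrogenase -3.02, the hypersensitive-induced response protein -2.11, the vignain-like protease -3.22, L13-2 -2.14, L10a -3.57 and the AP2/EREBP factor 2.96.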

How the results depend on the processing

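The counts of called unigenes depended on the setting, as 11 higher and 5 lower in the fit reported. They became 59 and 63 with all best hits in the fit, 4 and 1 with only the groups compared, 27 and 11 with no filter, 7 and 3 with median-ratio scaling, and 0 and 0 both with a pseudocount of 0.1 FPKM and at a mean of at least 5 FPKM (limma; 3075 and 1978 at an unadjusted p below 0.05). The added settings gave 7 and 4 with both best hits in Oryza and 5 and 5 with unigenes summed by TrEMBL hit, where the log2 changes of L13-2 and glyceraldehyde-3-phosphate dehydrogenase turned to -0.056 and -0.036 and that of the tyrosine-sulfated glycopeptide receptor came to 0.10 (adjusted p = 0.927). With only the groups compared, 14 of the 16 calls reported were lost. Causes were not tested. With a replicate block 4 were higher and 1 lower, and 11 of the 16 calls were lost; same-numbered libraries deviated together with correlations of 0.0056, -0.0477 and -0.0161, so the numbers did not pair the samples. Leaving out 1 library gave 3 to 10 higher and 2 to 6 lower, lost 8 to 11 of the 16 calls, moved the ratio of spreads between 0.81 and 1.38, the median log2 change between -0.0136 and 0.00033 and the difference in rice share between -2.74 and -0.504 percentage points. Without untreated replicate 1 only 3 were higher and without spermidine replicate 3 only 2 were lower. Oligopeptide transporter 3 lost its call in 13 of 19 settings (adjusted p from 0.00251 to 0.357), bark storage protein A in 11 of 19, and the NPF5.10 unigene and CGLD27 in 10 of 19. Of 80 uncalled unigenes followed, 14 were called with all best hits in the fit, KAI2 without spermidine replicate 3 (adjusted p = 0.0154) and Peroxidase 1 without untreated replicate 3 (0.0138). FPKM keeps no counts, so how far depth limits the low unigenes is unknown.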
